A study of Homo sapiens with 6 samples.

Results

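Antisense long noncoding RNAs were taken as the array probes for cell RNA whose gene name ends in -AS1, -AS2 or -AS3. The rule found 169 probes for 130 genes among 50586 probes, with 115 genes named -AS1, 11 named -AS2 and 4 named -AS3. Each was set beside the probes of its sense gene, the gene whose symbol precedes the suffix (221 probes for 125 genes). The cells were MOLT-4, an established human line of T-cell acute lymphoblastic leukaemia. One group of 3 samples (mock) had been transfected with an empty vector and the other group of 3 with NUDT16, an RNA decapping enzyme of the Nudix family. Total RNA was immunoprecipitated with an antibody to the m3G and m7G caps of RNA 5′ ends, and each precipitate was labelled with Cy3 and hybridised to 1 array. The comparison asks which capped RNAs were recovered at another level when NUDT16 was supplied. No array of unprecipitated RNA was analysed here, so the amount of an RNA and the share of it that carried a cap cannot be told apart, nor can fewer expressing cells and less RNA per cell. Whether the transfection was transient or stable is not stated in the labels. Nothing in the labels says that the 3 samples of a group came from separate cultures, so the p-values measure the spread between these samples, which may be technical.

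A natural antisense RNA is transcribed from the strand opposite to another gene and may overlap that gene or start near its promoter. Most are capped and polyadenylated by the same machinery as messenger RNA. Some act in the nucleus on the gene they face, others work at distant sites or serve as hosts for small nucleolar RNAs (snoRNAs), which are cut from their introns and guide the modification of ribosomal RNA. A cap antibody can capture such transcripts as it captures messenger RNA.

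The arrays were of unequal quality. Between 39.3% and 52.0% of spots stood well above background on 5 of them, and 14.6% on NUDT16 replicate 2. Array numbers coincide with slides, 1 slide holding mock and NUDT16 of the same number, and same-numbered arrays deviated together from their group means over all tested probes (correlation 0.84, 0.39 and 0.77). Neither of the 2 NUDT16 probes was well above background on any array. The one probe in all that passed the test named NUDT16P1, listed as a pseudogene of NUDT16, with normalised signals of -4.71, -4.37 and -5.72 in the mock arrays, all at background, and 2.63, 1.43 and 2.13 in the NUDT16 arrays. Another NUDT16P1 probe was at background on every array of both groups. All 10 T-lineage marker genes had a probe detected on 4 or more arrays, while the B-lineage genes MS4A1 and PAX5, the myeloid genes MPO and CSF1R and the erythroid gene HBB were detected on none. CD79A and CD14, markers of the B and myeloid lineages, were detected on 6 and 4 arrays. Their part in any result was not tested.

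Sequences bear on 3 features of the antisense probes: what else a probe can bind, whether probes of 1 gene read the same stretch, and how the capped end begins. The probe for RUSC1-AS1, at chr1:155290264-155290323 on the minus strand (hg19), runs antiparallel to a probe for FDPS, the farnesyl diphosphate synthase of sterol synthesis, at chr1:155290269-155290328 on the plus strand. The capitals mark 55 bases that are the reverse complement of each other.
RUSC1-AS1: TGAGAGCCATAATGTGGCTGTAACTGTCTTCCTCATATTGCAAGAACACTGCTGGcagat
FDPS: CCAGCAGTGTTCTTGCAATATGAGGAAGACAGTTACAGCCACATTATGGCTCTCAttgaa
Which strand the labelled material represented is not stated in the labels, and without that the antisense and sense signals at such a site cannot be told apart.

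C17orf76-AS1, now named SNHG29 in RefSeq, had 2 probes that were read on every array, at chr17:16345210-16345270 (first) and chr17:16344470-16344529 (second), both on the plus strand (hg19). They are shown because their values differed in direction. Capitals mark AATAAA, a polyadenylation hexamer, in the second.
C17orf76-AS1, first probe: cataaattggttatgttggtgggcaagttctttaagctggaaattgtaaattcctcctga
C17orf76-AS1, second probe: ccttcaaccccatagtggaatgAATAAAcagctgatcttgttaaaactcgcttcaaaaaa
AATAAA or its variant ATTAAA, searched on the printed strand alone, occurred in 34 of the 169 antisense probes (20.1%) and in 11.2% of all 60-base probes. ZBTB20-AS1, at chr3:114107766-114107825 on the plus strand (hg19), has the variant in capitals.
ZBTB20-AS1: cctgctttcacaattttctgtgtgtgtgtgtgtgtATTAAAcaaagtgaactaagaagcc

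The cap sits on the first transcribed base, and the RefSeq starts (GRCh38.p14) of ZFAS1, SNHG29 and EPB41L4A-AS1, which host snoRNAs, are shown from 20 bases before to 30 after, with the first 10 transcribed bases in capitals.
ZFAS1 (the array's ZNFX1-AS1): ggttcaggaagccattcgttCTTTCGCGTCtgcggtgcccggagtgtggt
SNHG29 (C17orf76-AS1): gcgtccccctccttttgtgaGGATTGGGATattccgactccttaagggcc
EPB41L4A-AS1: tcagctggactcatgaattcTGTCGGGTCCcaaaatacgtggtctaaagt
At its annotated start ZFAS1 has an unbroken run of 5 pyrimidines, the form known from ribosomal protein messengers. A run of 5 or more is found at 5.22% of 27305 RefSeq starts. The run was 0 bases long in SNHG29 and 1 in EPB41L4A-AS1. A difference of a few bases in the annotated start would change these counts.

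A smaller share of antisense probes than of all probes was detected. A probe counted as detected on an array when more than 50% of its usable spots were well above background. Of the 169 antisense probes, 61, 43 and 62 were detected on mock replicates 1, 2 and 3, and 49, 12 and 63 on NUDT16 replicates 1, 2 and 3. The antisense share was below that of sense-gene probes and of all probes on each of the 6 arrays, for example 36.1% against 54.8% and 47.0% on mock replicate 1 and 7.10% against 14.9% and 13.6% on NUDT16 replicate 2. The highest antisense shares were 36.1% and 36.7% on mock replicates 1 and 3 and 37.3% on NUDT16 replicate 3, so the groups overlap. On no array at all were 92 antisense probes (54.4%) detected, against 44.5% of all probes and 36.2% of sense-gene probes. These counts compare probes, which share arrays, and no test was run on them.

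**Figure D1:**
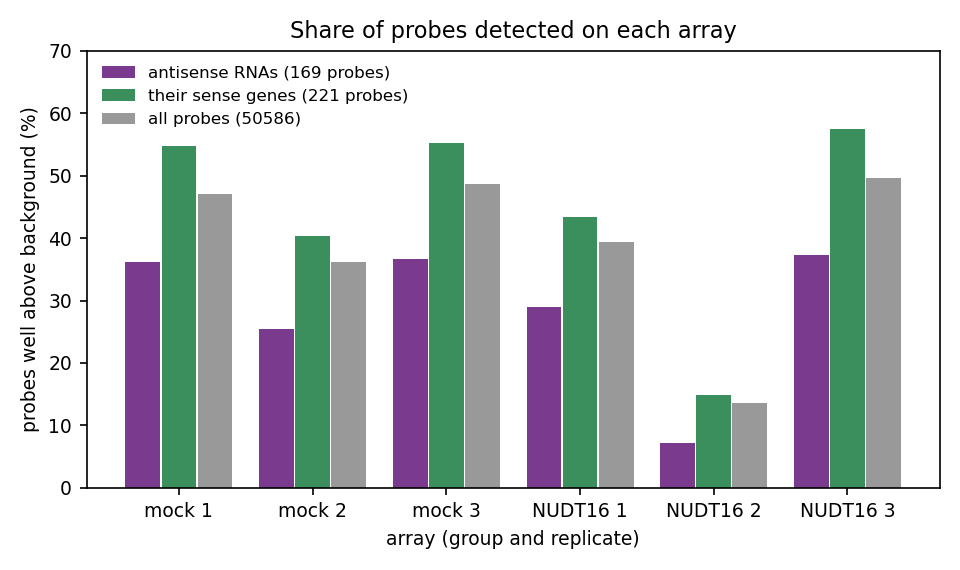
Share of probes well above background (%, y axis) on each of the 6 arrays (x axis), for antisense RNAs, their sense genes and all probes. The antisense bar is the lowest of the 3 on each array, from 7.10% on NUDT16 replicate 2 to 37.3% on NUDT16 replicate 3.

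By gene, 67 of the 130 antisense RNAs were detected on no array, 31 on some but too few to be tested, and 32 passed the filter (a probe detected in every array of mock, of NUDT16 or of both). The 32 held 41 probes, 24.3% of the antisense probes, compared with 35.1% of all probes and 38.5% of sense-gene probes. All 32 were named -AS1. None of the 13 probes of -AS2 genes and none of the 8 probes of -AS3 genes passed. Through the mock arrays alone 29 of the 41 probes passed, and through the NUDT16 arrays alone only 1, that of PAN3-AS1. A probe that passes through one group alone can be lower in the other merely by the filter, so no direction is read from counts over the 41. No antisense RNA was detected on all arrays of one group and on none of the other.

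No antisense RNA changed between NUDT16 and mock cells by the test. Differences are NUDT16 minus mock on the log2 scale, after each array was shifted by the 75th percentile of its signals, and were tested with limma over 17765 probes with Benjamini-Hochberg adjustment at 0.05. Of the 41 antisense probes 0 were called, where 0.00563% of all probes were (1 probe). With the replicate number as a block 0 were again called (0.00563% of all), the lowest adjusted limma p being 0.482, against 0.999 without the block. At an unadjusted limma p under 0.05 there were 0 antisense probes without the block (0.0844% of all) and 1 with it (7.96% of all), that of MFI2-AS1. Groups without overlap were found for 0 of the 41 probes (1.37% of all).

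The differences of the 41 probes ran from -0.95 to 1.31, with a median of 0.07 beside -0.02 over all tested probes and -0.08 over the 85 tested sense-gene probes. Above 0 stood 23 probes and 18 stood below (48.8% of all tested probes were above 0). The median standard error was 0.64 without the block and 0.35 with it, both larger than any of those medians. In data simulated on the same probes and group sizes without the block, the test recovered 0% of changes of 1 or of 2 on the log2 scale and 63.5% of changes of 4. Changes of the size seen here were therefore not detectable by it. The blocked fit was not simulated.

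The arrays of replicate 2 set the widest values. From one same-numbered pair of arrays to the next, the 41 differences had medians of 0.07, 0.10 and -0.10. They spread from -0.77 to 1.38 in replicate 1, from -1.88 to 4.09 in replicate 2 and from -0.98 to 0.97 in replicate 3. On NUDT16 replicate 2, 29 of the 41 probes (70.7%) were at background, against 62.5% of all tested probes, and their normalised signal there is a floor and not a level. The 75th percentile of that array was a signal of 8.57, against 91.7 to 359 on the others. It lay below every detected probe, the lowest of which had a normalised signal of 1.18. The shift of NUDT16 replicate 2 is thus uncertain, and with it the sign of pair 2 differences, also for detected probes. With replicates 1 and 3 only and the block, the differences ran from -0.57 to 0.57 with a median of -0.10. In that fit 0 antisense probes were called (2.83% of all probes), the lowest adjusted limma p being 0.183, and 3 had an unadjusted p under 0.05 (21.6% of all). That fit gave every probe 1 common standard error of 0.26, so a single deviating pair can be called in it. The sign was the same in all 3 pairs for 11 of the 41 probes (26.8%), against 43% of all tested probes.

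**Figure D2:**
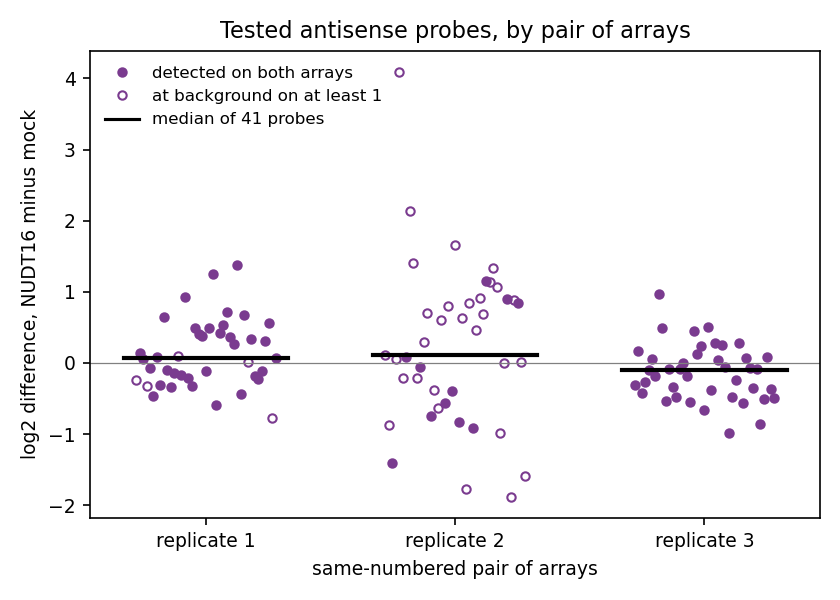
Log2 difference, NUDT16 minus mock (y axis), of the 41 tested antisense probes in each same-numbered pair of arrays (x axis); bars are medians and open circles are probes at background on at least 1 array of the pair. Replicate 2 spreads from -1.88 to 4.09 and holds most open circles, while replicates 1 and 3 lie between -0.98 and 1.38.

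Antisense genes that host snoRNAs were among the steadily detected ones. RefSeq places snoRNA genes inside 4 of the 127 members whose span it gives, and all 4 were among the 10 antisense genes detected on all 6 arrays. They are ZNFX1-AS1 (ZFAS1), with SNORD12, SNORD12B and SNORD12C; C17orf76-AS1 (SNHG29), with SNORD49A, SNORD49B and SNORD65; EPB41L4A-AS1, with SNORA13; and HNRNPU-AS1 by way of HNRNPU, the symbol RefSeq now gives it, with SNORA100. For HNRNPU-AS1 that span is the one of its sense gene, and its probe lies on the same strand, so it is no case of an antisense host. The probes are named for the hosts and not for the snoRNAs.

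ZFAS1, a host known for its abundant spliced transcript, had normalised log2 signals of 6.15, 7.55 and 5.42 in mock replicates 1 to 3 and 6.64, 6.72 and 5.92 in NUDT16 replicates 1 to 3. Mock replicate 2 was the highest array and mock replicate 3 the lowest, so the NUDT16 values lay inside the mock range. The difference was 0.06 with a standard error of 0.67. The first SNHG29 probe gave 7.03, 7.64 and 5.82 in mock and 7.52, 7.08 and 6.27 in NUDT16 arrays, again with the NUDT16 values inside the mock range (difference 0.13, standard error 0.66). Its second probe gave 2.13, 4.18 and 3.13 against 2.19, 2.77 and 2.71, a difference of -0.59 (standard error 0.65). The sign of the SNHG29 difference thus depended on the probe. Without the block neither value exceeded its standard error. With the block the standard errors were 0.35 and 0.37, and the second value exceeded its own. EPB41L4A-AS1, a long noncoding RNA known as a growth-related transcript, gave 5.79, 6.48 and 4.96 against 6.16, 6.08 and 5.20 (difference 0.07, standard error 0.63). These 3 genes shared an order within each group: replicate 3 was the lowest array of mock and of NUDT16 cells for the first probe of each. In replicates 1 and 3 their first probes were higher in the NUDT16 array of both slides, and in replicate 2 they were lower. Neither pattern was particular to snoRNA hosts. Replicate 3 was also lowest in both groups for HLA-F-AS1, HOXB13-AS1 and RUSC1-AS1, inside which RefSeq places no snoRNA gene. HLA-F-AS1 shared the directions by pair too (0.54, -0.92 and 0.25), and HNRNPU-AS1 had the opposite ones (-0.23, 0.90 and -0.08).

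**Figure D3:**
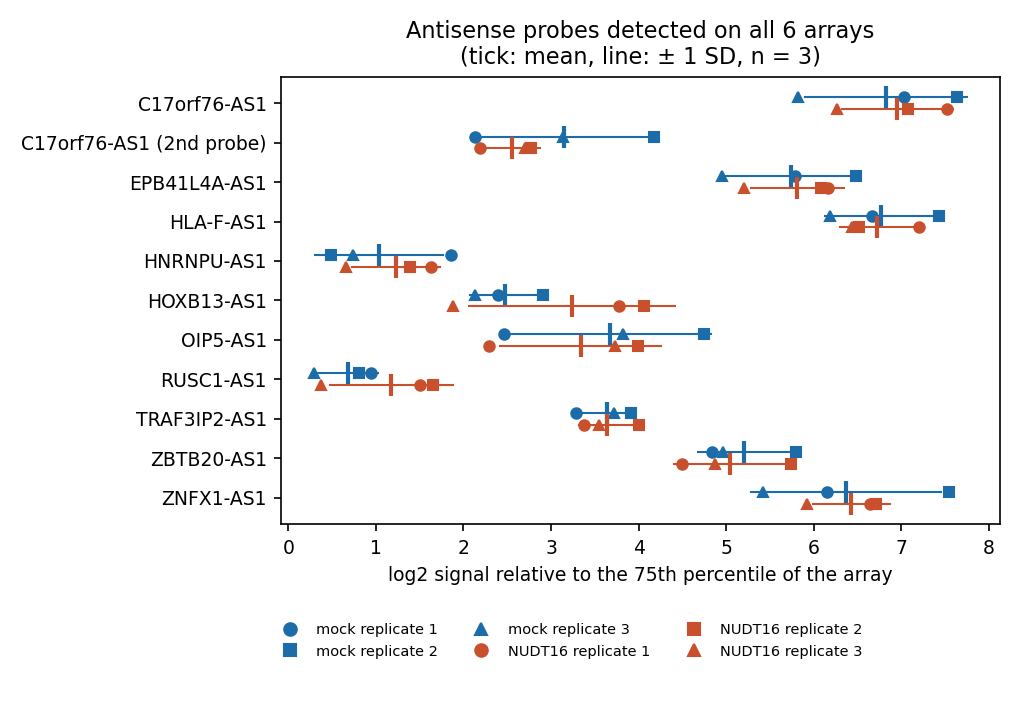
Normalised log2 signal (x axis) of the 11 antisense probes detected on all 6 arrays, with mock arrays above and NUDT16 arrays below on each line; marker shapes are replicates, ticks are means and lines are 1 SD either side (n = 3). The 2 groups overlap for each probe, and the 2 probes of C17orf76-AS1 differ in direction (0.13 and -0.59).

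HOXB13-AS1, RUSC1-AS1 and OIP5-AS1 had the largest differences of the 10 genes detected on all 6 arrays, which ran from -0.34 to 0.76 when the brightest probe stood for a gene. HOXB13-AS1, at chr17:46800593-46800652 on the plus strand (hg19), is now named PRAC2, a small nuclear protein gene known from prostate and colon. Its normalised log2 signals were 2.39, 2.91 and 2.13 in mock and 3.77, 4.06 and 1.89 in NUDT16 arrays. NUDT16 replicates 1 and 2 were above every mock array and NUDT16 replicate 3 was below every one. The place of NUDT16 replicate 2 depends on the uncertain shift of that array. The difference of 0.76 had a standard error of 0.68, and 0.40 with the block (adjusted limma p 0.999, and 0.482 with the block). It was 0.35 without NUDT16 replicate 2, 0.50 without NUDT16 replicate 1 and 1.44 without NUDT16 replicate 3.

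OIP5-AS1, known as cyrano and as a sponge of microRNAs, lies at chr15:41577459-41577518 on the plus strand (hg19). It gave 2.47, 4.75 and 3.82 in mock and 2.29, 3.99 and 3.73 in NUDT16 arrays. Same-numbered arrays differed by -0.18, -0.75 and -0.09, but the mock arrays alone spanned 2.28. The difference was -0.34 (standard error 0.72), and a second probe, at background on NUDT16 replicate 2, gave -0.70, or -0.16 with replicates 1 and 3 only. TRAF3IP2-AS1 faces TRAF3IP2, the gene of an adaptor in interleukin receptor signalling. Its brightest probe was the steadiest of the 10, with 3.29, 3.91 and 3.72 against 3.38, 4.0 and 3.55 and a difference of 0.00 (standard error 0.57), while its other 2 tested probes gave -0.21 and -0.95 and were at background on NUDT16 replicate 2. For all 10 genes the range over the 3 mock arrays, from 0.62 to 2.28, exceeded the size of the group difference. That range includes differences between slides, which same-numbered arrays share, so it is no measure of the spread of pair differences.

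Among the 7 genes with more than 1 tested probe, the probes of a gene differed by 0.06 to 0.95, and in 4 genes they differed in sign. The choice of probe, like the choice of array, thus limits every single value given here.

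EPB41L4A-AS1, HOXB13-AS1 and ZBTB20-AS1 were read on all 6 arrays although no probe of their sense gene passed the filter. ZBTB20 encodes a zinc-finger repressor, and its antisense RNA gave 4.83, 5.80 and 4.96 in mock and 4.50, 5.74 and 4.88 in NUDT16 arrays (difference -0.16, standard error 0.61). The 2 ZBTB20 probes were detected on 2 and 1 arrays. The HOXB13 probe, for a homeobox factor of posterior tissues, lies 1491 bases from the probe of its antisense gene and was detected on no array. Of the 2 EPB41L4A probes, for a membrane-skeleton protein, each was detected on 3 arrays, and the nearer lies 366 bases from the antisense probe. Signals of different probes are not comparable as levels, so what is shown is detection on every array on the antisense side, with detection on 0 to 3 arrays on the sense side. In all, 9 of the 32 tested antisense genes had no tested sense gene.

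In only 3 gene pairs were antisense and sense both detected on all 6 arrays, and those 3 are described array by array. For HLA-F-AS1 the normalised signals were 6.67, 7.44 and 6.19 in mock and 7.21, 6.52 and 6.44 in NUDT16 arrays (difference -0.04, standard error 0.60). HLA-F, a nonclassical histocompatibility gene, gave 5.78, 4.65 and 4.26 against 6.76, 5.43 and 4.46 (difference 0.66, standard error 0.71), with its highest value in NUDT16 replicate 1. The antisense difference minus the sense difference was -0.70 on average, and -0.45, -1.70 and 0.05 in pairs 1 to 3 (exact two-sided permutation p 0.5, where 3 arrays against 3 cannot give less than 0.1). This permutation, here and for the next 2 gene pairs, reassigns arrays between groups and leaves the pairing by slide unused. The value was -0.24 without mock replicate 2, -0.34 without NUDT16 replicate 1, -1.10 without NUDT16 replicate 3 and -1.19 without mock replicate 1. The HLA-F difference itself was 0.05 without NUDT16 replicate 1 and 1.20 without NUDT16 replicate 3.

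The signal of HLA-F-AS1 across arrays was nearer to that of RPL23A, a large-subunit ribosomal protein gene chosen for comparison after its values were seen, than to that of HLA-F. RPL23A gave 9.26, 10.32 and 8.96 in mock and 9.63, 9.49 and 9.03 in NUDT16 arrays, with mock replicate 2 highest as in HLA-F-AS1. After each probe was centred on its own mean, HLA-F-AS1 and RPL23A differed by 0.17 per array on average, and HLA-F-AS1 and HLA-F by 0.71. Of 17764 other tested probes, 161 (0.906%) were at least as near to HLA-F-AS1 as this RPL23A probe, and 57.9% at least as near as HLA-F. RefSeq places RPL23AP1, a pseudogene of that ribosomal protein gene, within the span of HLA-F-AS1, and whether ribosomal protein transcripts contribute to the probe was not tested.

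RUSC1-AS1 faces RUSC1, the gene of a signalling adaptor. It gave 0.94, 0.81 and 0.29 in mock and 1.50, 1.65 and 0.37 in NUDT16 arrays (difference 0.50, standard error 0.61), and RUSC1 gave 1.21, 0.24 and -0.16 against 2.06, 1.60 and 0.05 (difference 0.80, standard error 0.69). Both were higher in the NUDT16 array of all 3 pairs, RUSC1 by more each time, so the antisense difference minus the sense difference was -0.29, -0.51 and -0.12, on average -0.31 (exact permutation p 0.5). It was -0.57 without mock replicate 1 and -0.057 without NUDT16 replicate 1. FDPS, whose probe is complementary to that of RUSC1-AS1 as printed above, gave 6.47, 6.13 and 5.39 against 7.02, 6.16 and 5.59 (difference 0.26, standard error 0.62), also above mock in all 3 pairs. For RUSC1-AS1, RUSC1 and FDPS the direction in pair 2 depends on the uncertain shift of NUDT16 replicate 2. Centred on their own means, RUSC1-AS1 and FDPS differed by 0.26 per array and RUSC1-AS1 and RUSC1 by 0.35. At least as near as FDPS were 965 of the other tested probes (5.43%), and at least as near as RUSC1 were 2246 (12.6%).

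HNRNPU-AS1 was not antisense by its probe. The probe, at chr1:245003941-245004000 on the minus strand (hg19), lies on the same strand as the probes of HNRNPU, the gene of a nuclear RNA-binding scaffold protein. HNRNPU-AS1 gave 1.86, 0.49 and 0.74 in mock and 1.63, 1.39 and 0.66 in NUDT16 arrays (difference 0.20, standard error 0.62). HNRNPU gave 5.07, 8.03 and 7.10 against 4.29, 6.11 and 6.60 (difference -1.06, standard error 0.83), lower in the NUDT16 array of each pair and lowest on both arrays of slide 1. The HNRNPU-AS1 difference minus that of HNRNPU was 1.26, from pairs of 0.55, 2.82 and 0.42 (exact permutation p 0.4). It was 0.34 without mock replicate 2, 0.37 without NUDT16 replicate 1, 2.01 without NUDT16 replicate 3 and 2.51 without mock replicate 1. Centred on their means the probes differed by 1.54 per array, and 96.2% of the other tested probes were at least as near to HNRNPU-AS1. By strand, the probes of 127 of the 130 antisense genes lay opposite to those of the sense gene, those of HNRNPU-AS1 and AKIRIN2-AS1 lay on the same strand, and MLK7-AS1 had no sense probe.

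**Figure D4:**
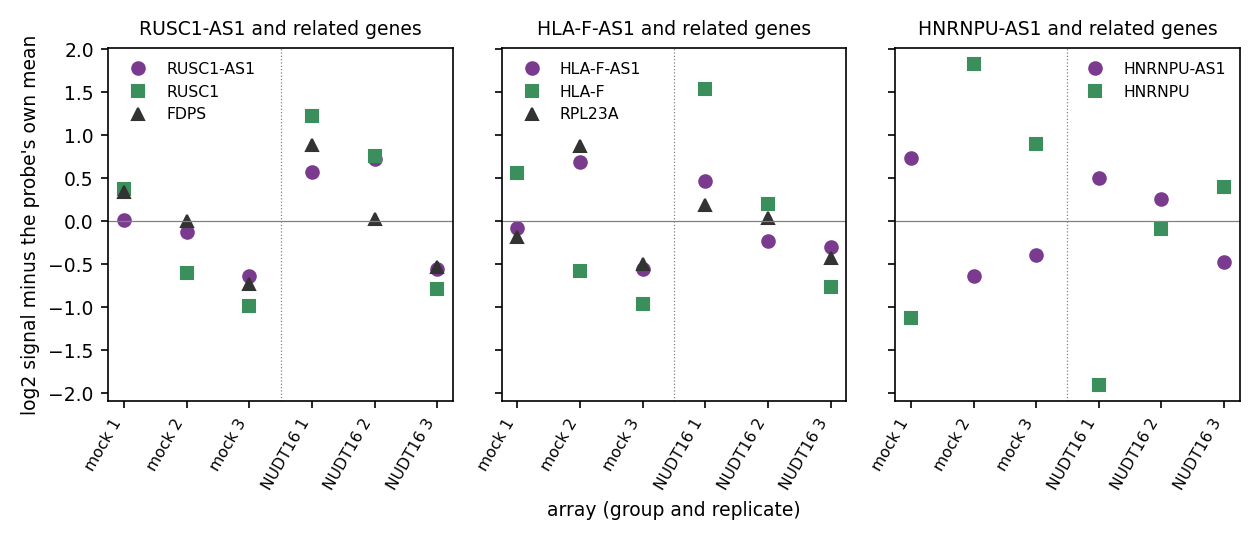
Log2 signal minus the probe's own mean over 6 arrays (y axis) on each array (x axis), for RUSC1-AS1 with RUSC1 and FDPS, HLA-F-AS1 with HLA-F and RPL23A, and HNRNPU-AS1 with HNRNPU. HLA-F-AS1 stays nearer to RPL23A (mean gap 0.17) than to HLA-F (0.71), and HNRNPU-AS1 and HNRNPU are far apart on replicates 1 of both groups and on mock replicate 2 (mean gap over all arrays 1.54).

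Over all 23 pairs in which both sides were tested, the antisense difference stood on either side of the sense difference. The antisense difference minus the sense difference had a median of -0.09, from -1.29 for TTC28-AS1 to 1.68 for PAN3-AS1, with 14 pairs below 0 and 9 above. This quantity does not depend on how arrays are shifted against each other. In 20 of the 23 pairs at least 1 side was at background on NUDT16 replicate 2, the extremes among them. The medians in pairs 1 to 3 were -0.09, -0.02 and -0.27. Within 1 on the log2 scale lay 21 of the 23 gene pairs in replicate 1, 8 in replicate 2 and 23 in replicate 3. For no gene pair were the values of the groups without overlap. All 3 replicates were below 0 in 6 gene pairs and above 0 in 2. In replicate 3, 17 gene pairs were below 0 and 6 above, and in replicate 1, 13 and 10. Replicates 1 and 3 were both below 0 in 10 gene pairs and both above in 3. Antisense and sense differences had the same sign in 13 of 23. Leaving out 1 array turned the median's sign in 3 cases, to 0.20 without mock replicate 2, 0.04 without mock replicate 3 and 0.37 without NUDT16 replicate 1.

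**Figure D5:**
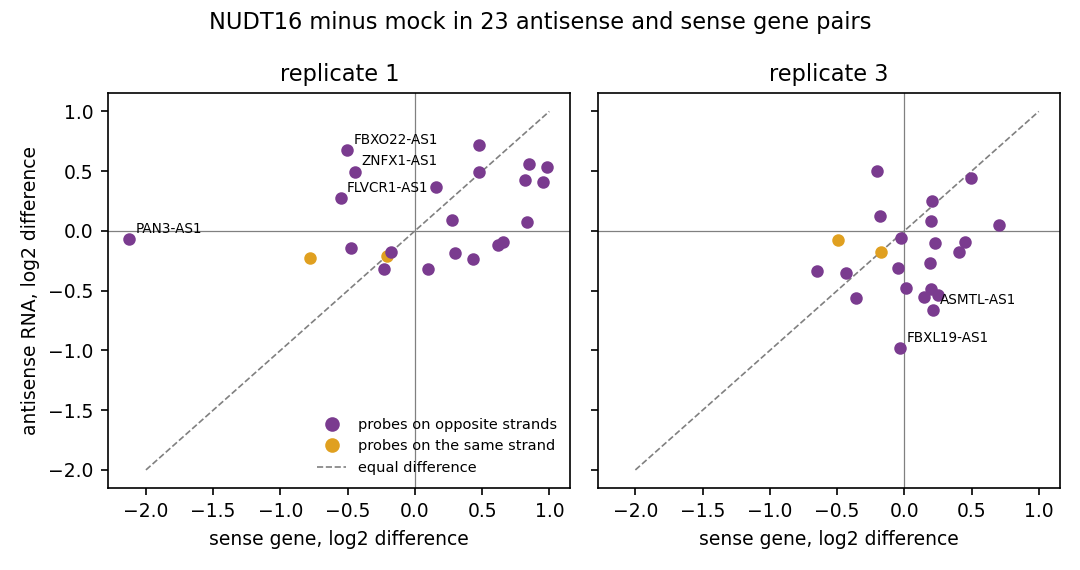
Log2 difference, NUDT16 minus mock, of the sense gene (x axis) and the antisense RNA (y axis) for 23 gene pairs, in replicate 1 and replicate 3; the dashed line marks equal differences and orange points are the 2 pairs with probes on the same strand. Within 1 of the line lie 21 pairs in replicate 1 and 23 in replicate 3, with PAN3-AS1 the farthest in replicate 1 (2.06).

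The sense genes of the antisense RNAs were not called either. Of their 85 tested probes 0 passed (0.00563% of all probes), and with replicates 1 and 3 alone 3 did (2.83% of all), for NEXN, PAN3 and ZFAT. For ZFAT and PAN3 these calls rest on probes detected on 4 of 6 arrays. The PAN3 pairs went opposite ways, by -2.12 in replicate 1 and 0.23 in replicate 3. The antisense RNA of PAN3, the gene of a poly(A)-shortening complex subunit, had the only antisense difference of at least 1 (1 of 41, against 6.97% of all tested probes). PAN3-AS1 gave -1.40, -2.55 and -1.46 in mock and -1.47, 1.54 and -1.56 in NUDT16 arrays, so that its difference of 1.31 (standard error 0.82) rested on replicate 2, where the mock array was at background. With replicates 1 and 3 only it was -0.08.

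Among the tested antisense genes that were not detected on all 6 arrays, 22 in number, 21 were at background on NUDT16 replicate 2. Their differences ran from -0.67 to 1.31 (median 0.26), 14 above 0 and 8 below, and from -0.44 to 0.57 with replicates 1 and 3 only. The floor of NUDT16 replicate 2 enters 21 of the 22 differences, so no direction is read from that median or those counts. MFI2-AS1, antisense to the gene of the membrane iron-binding protein melanotransferrin, was above mock in each pair (by 0.65, 1.41 and 0.50). It gave 1.49, -0.47 and -1.33 in mock and 2.14, 0.94 and -0.83 in NUDT16 arrays, the NUDT16 replicate 2 value being background. Its probe lies within the genomic span of an MFI2 probe of the other strand, so the limit on strand given for RUSC1-AS1 and FDPS holds here too. Its mock arrays, each on its own slide, differed among themselves by more than the groups did, slide differences included. The difference of 0.85 had a standard error of 0.86, and 0.33 with the block (adjusted limma p 0.482 with the block). The name was taken because it is the one antisense probe with an unadjusted p under 0.05 in the blocked fit, seen after the values.

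Of the antisense genes that face genes of DNA replication and cell division, 2 of 14 listed were on the array, both were tested and 0 were called (0.00563% of all probes). MCM3AP-AS1, opposite a gene linked to the loading of the MCM helicase, differed by -0.09 (standard error 0.69), and PCNA-AS1, opposite the gene of the sliding clamp, by -0.18 (standard error 0.69). On NUDT16 replicate 2 both were at background, and PCNA-AS1 was so on NUDT16 replicate 1 too. Of 18 listed antisense genes of T cells and other blood cells, TRAF3IP2-AS1 and ZEB1-AS1 were on the array. TRAF3IP2-AS1 is described above, and the 2 ZEB1-AS1 probes were detected on 4 arrays each and not tested. Of antisense genes in the HOX clusters, HOXB13-AS1 is described above and the 2 probes of HOXA11-AS1 were detected on no array.

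Some antisense and sense genes start back to back. RefSeq (GRCh38.p14) gives windows from 250 bases before to 50 after the start for 76 pairs, all on opposite strands, and the 2 windows share bases in 14. Among pairs with a tested antisense gene the number was 6 of 19, and among the others 8 of 57. The overlap was longest for DNAJC3-AS1, at 287 bases. RUSC1-AS1 is the one antisense RNA detected on all 6 arrays whose window shares bases with that of its sense gene. Its window, at chr1:155324127-155324426 on the minus strand (GRCh38.p14), is printed because both genes were higher in the NUDT16 array of all 3 pairs. Capitals mark the 170 bases it shares with the RUSC1 window.
RUSC1-AS1: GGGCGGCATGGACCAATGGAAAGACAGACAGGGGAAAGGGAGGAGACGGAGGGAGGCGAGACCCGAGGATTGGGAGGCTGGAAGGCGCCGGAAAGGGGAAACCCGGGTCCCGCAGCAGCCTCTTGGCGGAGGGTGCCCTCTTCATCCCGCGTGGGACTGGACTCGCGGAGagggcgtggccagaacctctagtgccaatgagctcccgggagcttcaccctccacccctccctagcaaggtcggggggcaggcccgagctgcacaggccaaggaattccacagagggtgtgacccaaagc
The RefSeq starts of the pair lie 331 bases apart. Of all tested probes 43% had the same sign in all 3 pairs. In other shared-window pairs tested on both sides, antisense and sense differences were -0.28 and 0.13 (ENO1-AS1) and 0.16 and -0.57 (FLVCR1-AS1). They were -0.15 and 0.19 for PCBP1-AS1 and -0.06 and -1.31 for DNAJC3-AS1. Each of these pairs had a side at background on NUDT16 replicate 2. Whether a shared window goes with a shared direction was not tested.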

How the data were processed

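Values were the deposited linear fluorescence intensity per spot of 6 one-colour arrays (design 039494, Feature Extraction 10.7.3.1 and hg19 probe positions, per the file headers). Per the file headers, background had been subtracted from that intensity, within-array trends removed and surrogates put in for dim spots, with no scaling from array to array. Feature Extraction and limma are named in the submitters' processing notes. The authors' deposited value table, on a log2 scale, was an alternative.

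Here log2 intensity was shifted by each array's 75th percentile. Control and outlier spots were left out, and spots of a probe were averaged. A probe was kept if every array of mock or of NUDT16 read it well above background. Tests used limma 3.58.1 under R 4.3.3, tried first on simulated data. The brightest probe stood for a gene. Each replicate number marks a slide and same-numbered arrays deviated together, so the numbers were taken to pair the arrays in the blocked fits and the pair differences. The main fit and the permutations left this pairing unused.

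Named were antisense genes detected on all 6 arrays (up to 6 a direction by p), up to 4 pairs a direction with the most unequal change, the 4 brightest, and listed genes. Members and lists were chosen with earlier results of these data known. Of the 130 antisense genes, 104 matched the RefSeq table by accession, 23 by symbol and 3 not at all, and 35 had a new symbol. The number of arrays limits the precision. Alternatives covered background, scaling, filter, block, left-out arrays, value source and probe choice. The values of 2 marker genes and the sequence of 1 probe are not reported here.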

Additional observations from a re-analysis of the deposited data

How the results depend on the processing

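No antisense probe was called under any alternative run. The replicate block left the differences, with medians of 0.07 for the 41 probes and -0.09 for unequal change, as they were, and changed no call. The median difference moved to -0.059 with quantile normalization, -1.01 with no scaling, 1.04 with no filter, -0.15 with the authors' deposited value table and -0.10 with replicates 1 and 3 only. It ran from -0.18 to 0.31 when 1 array was left out, falling below 0 without NUDT16 replicate 2 or mock replicate 1. The median unequal change moved to -0.28 with quantile normalization, -0.31 when both sides had to be detected on all 6 arrays, -0.31 in the authors' table, and ran from -0.57 to 0.37 when 1 array was left out. The median of all tested probes lay at -0.02 in the main setting, -0.15 with normexp, -0.26 with quantile normalization, -0.11 with the percentile over detected probes, -1.10 with no scaling, 0.82 with no filter and -0.21 with the authors' table.

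Of 404 alternative values of the 25 named genes, 79 turned direction and 1 was called. With normexp, C17orf76-AS1 turned to -0.66, EPB41L4A-AS1 to -0.78, HLA-F to -0.14, HNRNPU-AS1 to -0.16, TRAF3IP2-AS1 to -0.71, ZNFX1-AS1 to -0.68, ZNFX1 to -0.10 and FDPS to -0.50. With no scaling, C17orf76-AS1 was -0.96, C17orf76 -0.61, EPB41L4A-AS1 -1.01, HLA-F -0.43, HNRNPU-AS1 -0.89, HOXB13-AS1 -0.32, RUSC1-AS1 -0.59, RUSC1 -0.28, TRAF3IP2-AS1 -1.08, TRAF3IP2 -0.77, ZNFX1-AS1 -1.03, ZNFX1 -0.94 and FDPS -0.83. With quantile normalization EPB41L4A-AS1 was -0.059, TRAF3IP2-AS1 -0.0078 and ZNFX1-AS1 -0.037. With the percentile over detected probes these 3 were -0.017, -0.088 and -0.032. In the authors' table C17orf76-AS1 was -0.029, EPB41L4A-AS1 -0.097, TRAF3IP2-AS1 -0.024 and ZNFX1-AS1 -0.011. With replicates 1 and 3 only, HLA-F-AS1 was 0.39, HNRNPU-AS1 -0.15, OIP5 0.14, TRAF3IP2-AS1 -0.044, ZNFX1 -0.32, PAN3-AS1 -0.082, MCM3AP 0.12 and RPL23A 0.22, and PAN3 (-0.95) was called with a limma adjusted p of 0.0204. By other probes, C17orf76-AS1 was -0.59, C17orf76 -0.14, TRAF3IP2-AS1 -0.21 and -0.95, and ZNFX1 -0.28.

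Leaving out 1 array at a time, with no turn of sign, gave 0.35 to 1.44 for HOXB13-AS1, 0.26 to 0.90 for RUSC1-AS1, 0.39 to 1.40 for RUSC1, 0.05 to 1.20 for HLA-F and -1.89 to -0.38 for HNRNPU. With turns of sign it gave -0.38 to 0.53 for C17orf76-AS1, -0.32 to 0.44 for EPB41L4A-AS1, -0.12 to 0.59 for FDPS, -0.33 to 0.29 for HLA-F-AS1, -0.075 to 0.61 for HNRNPU-AS1, -0.75 to 0.55 for MCM3AP, -0.48 to 0.43 for MCM3AP-AS1, -0.94 to 0.19 for OIP5-AS1, -1.02 to 0.82 for PAN3, -0.76 to 0.29 for PCNA-AS1, -0.41 to 0.27 for RPL23A, -0.0098 to 0.67 for TRAF3IP2, -0.18 to 0.14 for TRAF3IP2-AS1, -0.51 to 0.14 for ZBTB20-AS1, -0.58 to 0.82 for ZNFX1 and -0.42 to 0.64 for ZNFX1-AS1. The cause of these turns was not tested. The dim NUDT16 replicate 2 limits what can be seen of the 29 antisense probes at background there.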

Other observations

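Of 17 probes with names ending in -IT1 to -IT3, 5 were tested: AGPAT4-IT1, ANKRD10-IT1, ANP32A-IT1, ASAP1-IT1 and FOXP1-IT1, described here after their values were seen. All but ANP32A-IT1 passed the filter through the mock arrays alone and can be lower in the NUDT16 arrays by the filter, so no direction is read from them. The 5 differences ran from -1.25 to -0.47 (median -0.75), with 1 sign in all 3 pairs of arrays, as for 43% of all tested probes. None was called by limma with or without the replicate block (0.00563% of all probes in both), and ASAP1-IT1 alone was called with replicates 1 and 3 only (2.83% of all). At an unadjusted limma p under 0.05 there were 0 without the block (0.0844% of all) and 3 with it (7.96% of all). ANP32A-IT1 was the one detected on all 6 arrays, with 4.62, 5.02 and 6.06 in mock and 4.14, 4.53 and 5.63 in NUDT16 arrays (difference -0.47, standard error 0.65). The other 4 were at background on NUDT16 replicate 2. Whether they differ from the antisense RNAs was not tested.

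Antisense genes named -AS without a number stood outside the rule. Of their 8 probes 4 were tested, CDKN2B-AS, DICER1-AS, IGF2-AS and WT1-AS, with differences from -0.65 to 0.90, and 0 were called by limma with or without the block (0.00563% of all probes in both). At an unadjusted limma p under 0.05 there were 0 without the block (0.0844% of all) and 1 with it (7.96% of all). DICER1-AS, the antisense gene of the microRNA-processing enzyme, was above mock in all 3 pairs, by 0.58, 1.53 and 0.59, and at background on NUDT16 replicate 2. The single tested probe with a name ending in -OT1, PCBP3-OT1, differed by -0.47.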
